A study of Rattus norvegicus with 12 samples.

Results

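The muscle RING finger (MuRF) genes Trim63 (MuRF1), Trim54 (MuRF3) and Trim55 (MuRF2) were followed in the epididymal fat pad of male Sprague-Dawley rats that were fed, fasted into phase 2 (P2) or fasted into phase 3 (P3). Expression was measured on 12 whole-transcript arrays, 1 per rat and 4 per group. The members were the 3 genes of this family by their symbol in the platform annotation, out of 14506 named genes, and each had 1 probe set, so the rule of taking the brightest probe set by its mean over the 12 arrays left nothing to choose. The family was chosen by the measured difference of Trim63 between fasted and fed rats in these same arrays, so the values of Trim63 are described without a test, while Trim54 and Trim55 are tested. The duration of each fast and the age of the rats were not used here. All rats were intact animals of 1 strain and 1 sex, and no genetic change or drug was applied. The extraction protocol speaks of liver, whereas the tissue and sample labels name white adipose tissue.

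MuRF proteins are ubiquitin ligases with a RING finger, a B-box, a coiled coil through which they pair with each other, and a COS box that binds microtubules. They are best known from striated muscle, where they sit at the titin of the sarcomere, and where MuRF1 marks myosin heavy chains and other thick-filament proteins for the proteasome during fasting, disuse and glucocorticoid excess. In phase 2 of a long fast an animal lives mainly on its fat, and in phase 3 it draws increasingly on body protein. In mouse and human cells Trim63 is transcribed from a promoter at which FOXO factors and the glucocorticoid receptor act side by side.

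The rat promoters of 2 of the 3 genes were found in the RefSeq promoter table of build GRCr8, and the 250 bases before the annotated start are shown for both. Trim63 is shown because its window holds that pair of elements next to each other, and Trim54 because its window held neither set of letters. Capitals mark the FOXO motif GTAAACA, the glucocorticoid receptor hexamer AGAACA and the TATA box TATAAA, each searched on both strands.
Trim63, chr5:151816986-151817235, plus strand: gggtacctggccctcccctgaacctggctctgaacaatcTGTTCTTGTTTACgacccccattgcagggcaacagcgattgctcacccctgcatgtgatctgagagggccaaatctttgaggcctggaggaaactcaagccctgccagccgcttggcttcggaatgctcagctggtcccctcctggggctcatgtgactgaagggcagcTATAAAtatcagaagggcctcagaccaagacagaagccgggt
Trim54, chr6:30978476-30978725, minus strand: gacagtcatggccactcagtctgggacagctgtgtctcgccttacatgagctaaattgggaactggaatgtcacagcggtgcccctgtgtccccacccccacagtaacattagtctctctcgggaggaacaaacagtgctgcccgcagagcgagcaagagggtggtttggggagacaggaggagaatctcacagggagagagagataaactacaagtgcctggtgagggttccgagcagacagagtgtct
In Trim63 the receptor hexamer, read on the minus strand as TGTTCT in the printed line, covered bases -211 to -206 before the start, and the FOXO motif, printed as TGTTTAC, followed directly at -205 to -199. The TATA box lay at -42 to -37. The FOXO motif occurred in 3.21% of the 33469 promoters listed there, the receptor hexamer in 17.5% and the TATA letters in 12.9%. The full inverted pair of hexamers facing each other, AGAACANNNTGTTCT, was not in the window. A shorter form, GAACANNNTGTTC, was looked for after the sequence had been seen, and it matched at -219 to -207, overlapping the receptor hexamer (14 promoters, 0.0418%). A FOXO motif within 3 bases of a receptor hexamer, also looked for after the sequence had been seen, occurred in 14 promoters (0.0418%). Apart from Trim63 only 2 of these belonged to genes measured here. They were the olfactory receptor Or14c40, which differed by 0.04 in P3 against fed rats (adjusted p = 0.704), and Stfa3l1, which differed by 0.14 (adjusted p = 0.156). The Trim54 window held the E-box letters CANNTG at 2 places and the Trim63 window at 3, as do 65.5% of all promoters at least once. These matches describe letters and not bound sites.

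Trim63 was low in fed fat, intermediate in P2 and among the most altered genes of the pad in P3. On the log2 scale its level was 5.03, 5.28, 5.11 and 5.2 in the 4 fed rats. It was 7.06, 7.92, 7.52 and 7.35 in the P2 rats. It was 11.95, 11.32, 11.52 and 11.63 in the P3 rats. No rat of 1 group came near another group, with 1.78 log2 units between the lowest P2 rat and the highest fed rat and 3.40 between the lowest P3 rat and the highest P2 rat. The gap between the phases was therefore several times the whole range of 0.636 within P3.

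The group means of Trim63 were 5.16 ± 0.11, 7.46 ± 0.36 and 11.61 ± 0.27 in fed, P2 and P3 rats (SD, n = 4 each). P2 rats were higher than fed rats by 2.31 ± 0.16 (SE), or 4.95-fold. P3 rats were higher than P2 rats by 4.14 ± 0.16, or 17.7-fold. Across the whole fast P3 rats were higher than fed rats by 6.45 ± 0.16, which is 87.4-fold on the measured scale. Counted from the largest rise down, Trim63 ranked 12 of 14506 genes in P2 against fed and 3 in P3 against P2. In P3 against fed it ranked 3, behind the short-chain dehydrogenase gene Sdr16c6 and the cytochrome P450 gene Cyp2e1. Falls, whatever their size, came last in this order. The fed level is not shown to lie above background. The 53 olfactory receptor genes named Olr, taken as mostly silent in fat, had a 95th percentile of 5.32 in fed rats, and neither the folds against fed rats nor the size of the first step relative to the second are therefore exact. In P2 and P3 rats the mean of Trim63 lay above those of all 53. This scale is only a gauge, since probe sets differ in their own background.

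**Figure D1:**
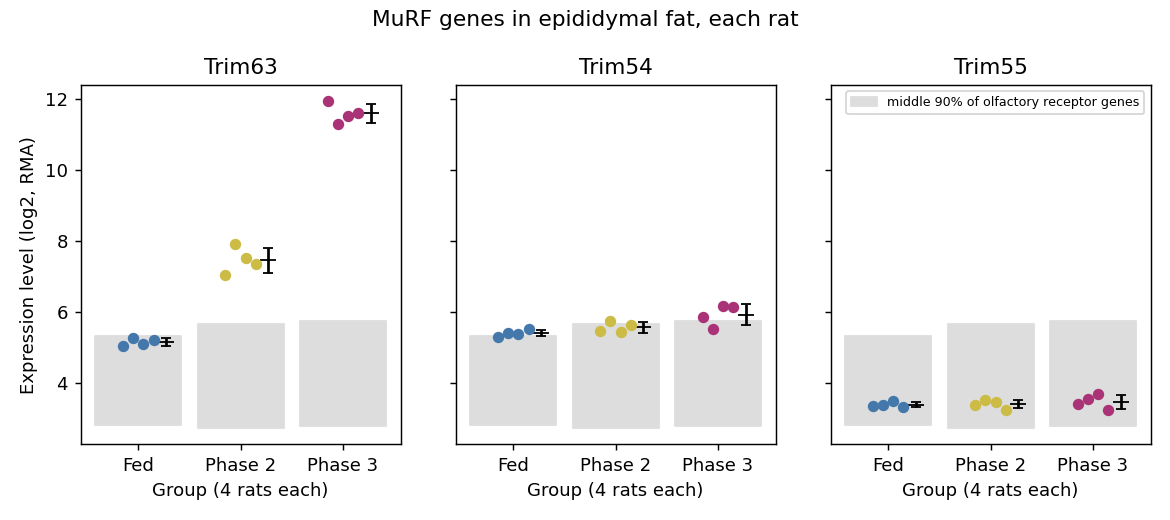
Log2 expression level of Trim63, Trim54 and Trim55 in each of the 4 fed, 4 phase 2 and 4 phase 3 rats (points), with the group mean and SD (black) and, in grey, the 5th to 95th percentile of the 53 olfactory receptor genes in that group. Trim63 leaves the grey band in phase 2 and reaches 11.32 to 11.95 in phase 3, Trim54 lies at the upper edge of the band and Trim55 inside it.

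Trim54, which in muscle cells stabilises microtubules and pairs with MuRF1, was higher in P3 than in fed fat by a small amount. Its levels were 5.31, 5.40, 5.38 and 5.51 in fed rats, 5.46, 5.75, 5.43 and 5.64 in P2 rats and 5.87, 5.53, 6.16 and 6.14 in P3 rats. The P3 rats all exceeded the fed rats, narrowly in P3 rat 2, and overlapped the P2 rats. Means were 5.40 ± 0.083, 5.57 ± 0.15 and 5.92 ± 0.29 in fed, P2 and P3 rats (SD, n = 4 each). Trim54 rose in P3 against fed rats by 0.53 ± 0.13 (SE, 95% interval 0.25 to 0.80, adjusted p = 0.00365), or 1.44-fold. In P2 against fed rats the difference was 0.17 ± 0.13 (interval -0.10 to 0.45, adjusted p = 0.385). Between P3 and P2 rats it was 0.35 ± 0.13 (interval 0.08 to 0.63, adjusted p = 0.0535).

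The call of Trim54 in P3 against P2 turned on single animals and on the scaling. Without P3 rat 2 the difference was 0.48 and passed (adjusted p = 0.00362), and it also passed without P2 rat 2 (0.0417) and when the arrays were rescaled. Its level was close to the upper edge of the olfactory receptor genes, of which 51 of 53 lay below it in P3 rats and 50 of 53 in fed rats. Those genes moved a little themselves. They had a median difference of 0.07 in P3 against fed rats, 7 of the 53 were called higher and 0 lower by limma, and 4 differed by at least as much as Trim54. Their mean level per array was 3.81 to 3.89 in P3 rats against 3.68 to 3.73 in fed rats. Whether that general lift of dim probe sets takes part in the Trim54 difference was not tested.

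Trim55, whose protein is reported in muscle in a complex with the titin kinase, Nbr1 and Sqstm1, was at the level of the olfactory receptor genes in every group. It measured 3.34, 3.39, 3.48 and 3.33 in fed rats, 3.38, 3.52, 3.45 and 3.24 in P2 rats and 3.41, 3.56, 3.69 and 3.23 in P3 rats. The groups overlapped throughout, and 24 of 53 olfactory receptor genes in P3 rats and 25 in fed rats lay below it. The difference was 0.09 ± 0.10 in P3 against fed rats (interval -0.13 to 0.30, adjusted p = 0.499), 0.01 ± 0.10 in P2 against fed rats (interval -0.20 to 0.23, adjusted p = 0.943) and 0.07 ± 0.10 in P3 against P2 rats (interval -0.14 to 0.29, adjusted p = 0.642). For a gene this close to background such intervals do not bound the change of the RNA itself.

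Of the 2 tested genes, 1 was thus called in P3 against fed rats, where 45.4% of all genes were called, 21.1% higher and 24.3% lower. By limma 0 of the 2 were called in P2 against fed rats, where 25.2% of all genes were (9.66% higher and 15.5% lower) and where 0 of the 2 had an unadjusted p under 0.05. By limma 0 were called in P3 against P2 rats, where 27.9% of all genes were (12.8% higher and 15.1% lower) and where 1 of the 2, Trim54, had an unadjusted p under 0.05. Values of Trim63 did not overlap between any groups, and those of Trim54 did not overlap between P3 and fed rats, where 41.9% of all genes did not (19.2% being higher). The shares of genes without overlap were 31.0% in P2 against fed rats (12.6% higher) and 26.3% in P3 against P2 rats (12.4% higher). The arrays themselves were alike in level, with medians of 6.026 to 6.1319 over all probe sets. P3 rats 2 and 3 stood apart from the other P3 rats on the third principal component, at -22.65 and 24.88. Without both of them Trim63 was higher in P3 than in fed rats by 6.64 and Trim54 by 0.61 (adjusted p = 0.000954), while Trim55 was at -0.07 (adjusted p = 0.648). Over the tested genes the medians of the P3 and fed arrays differed by -0.155. Centring the arrays on their medians adds 0.16 to every P3 against fed difference, which gives 6.61 for Trim63, 0.68 for Trim54 and 0.24 for Trim55 (adjusted p = 0.0594).

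The neighbours of the 3 genes on the GRCr8 map were read by order alone. Beside Trim63 lie Pdik1l, a kinase gene, and the zinc transporter gene Slc30a2. Pdik1l differed by -0.07 ± 0.084 in P3 against fed rats (adjusted p = 0.493, and 0.08 with centred arrays) and Slc30a2 by 0.21 ± 0.13 (adjusted p = 0.211, and 0.0362 with centred arrays). Of the 5 measured genes among the 3 on either side of Trim63 only Pafah2, an acetylhydrolase of platelet-activating factor, was called in P3 against fed rats, at -0.35 ± 0.078 (adjusted p = 0.00192), after -0.63 ± 0.078 in P2 against fed rats (adjusted p = 5.98e-05). The direct neighbours of Trim54, Ucn and Dnajc5g, differed by 0.11 and 0.15 (adjusted p = 0.477 and 0.391), and those of Trim55, Dnajc5b and Crh, by 0.10 and 0.05 (adjusted p = 0.225 and 0.668, and for Dnajc5b 0.0058 with centred arrays). Within 3 genes on either side, Cad fell beside Trim54 in P3 against fed rats (-0.79, adjusted p = 0.000171), as the only 1 called of 4 measured. Of 6 measured around Trim55, Pde7a (-1.26, adjusted p = 1.14e-06) and Hps3 (-0.60, adjusted p = 0.000312) fell and Cp rose (0.84, adjusted p = 0.0017). Over all genes 45.4% were called in P3 against fed rats. None of these neighbours was annotated as overlapping a MuRF gene.

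The genes whose profile over the 12 arrays was most like that of Trim63, by Pearson's r, were Rabgef1 (0.994), Tdp2 (0.988), Tcea1 (0.987), Mfn1 (0.986), Ulk1 (0.986), Ppm1d (0.985), Nr4a3 (0.985), Ggnbp2 (0.985), Tbc1d15 (0.984) and Tcp11l2 (0.984). All 12 points share their arrays and fall into 3 groups, so the coefficient describes the stepwise order of the groups. The 10 genes differed from Trim63 in size, with differences of 0.83 to 4.22 in P3 against fed rats. Likeness to Trim63 chose them, so these differences are described without a test. Nr4a3, an orphan nuclear receptor, had the largest of them. Its levels were 5.22 to 5.56 in fed, 6.71 to 7.51 in P2 and 9.03 to 10.39 in P3 rats. It was higher by 1.80 ± 0.25 in P2 and by 4.22 ± 0.25 in P3 against fed rats. Ulk1, the kinase that starts autophagy, was higher by 0.50 ± 0.083 in P2 and by 1.20 ± 0.083 in P3 against fed rats. Rabgef1, an exchange factor for Rab5 on early endosomes, was higher by 0.41 ± 0.074 and by 1.15 ± 0.074. Ppm1d, a phosphatase induced by p53, was higher by 1.58 ± 0.088 in P3 and Mfn1, which fuses mitochondria, by 0.83 ± 0.071.

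The profile of Trim54 had an r of 0.809 with that of Trim63, and that of Trim55 an r of 0.297. The genes most like Trim54 were Zbtb32 (0.956), the olfactory receptor gene Olr876 (0.950), Clec2e (0.949), Cngb1 (0.936) and Brpf3 (0.935). Those most like Trim55 were Tm4sf19 (0.881), Nxpe4 (0.853), Lypd8 (0.841) and the olfactory receptor genes Or10ag2 (0.841) and Or51g1 (0.830). Olfactory receptor genes thus stood among the closest profiles of both.

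The tripartite motif (TRIM) family to which the MuRFs belong holds many other RING ligases with a B-box. Of 40 other genes with a Trim symbol, 13 rose and 7 fell in P3 against fed rats, with a median difference of 0.19 beside 0.05 over all genes. In P2 against fed rats 3 rose and 2 fell (12.5% of the list beside 25.2% of all genes, with a median of 0.01 for each). Between P3 and P2 rats 7 rose and 5 fell (30% beside 27.9%), and only 6 were called when those 2 groups were fitted alone. With centred arrays the P3 against fed split was 24 higher and 2 lower, where 69.6% of the calls over all genes were higher (46.5% without centring). The share called in P3 against fed rats, 50%, was near the 45.4% of all genes.

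The largest rise among them was that of Trim24, a co-regulator of nuclear receptors, which measured 6.82 to 6.95 in fed, 7.01 to 7.34 in P2 and 8.19 to 8.41 in P3 rats and rose by 1.38 ± 0.085 in P3 against fed rats (adjusted p = 1.45e-08). Trim37, a ligase of centrosomes and peroxisomes, rose by 0.75 ± 0.17 (adjusted p = 0.00253) with overlapping rats. Trim25, which acts in antiviral RIG-I signalling, rose by 0.34 ± 0.078 in P2 and by 0.57 ± 0.078 in P3 against fed rats. The largest falls in P3 against fed rats were those of Trim8 (-1.02 ± 0.073, adjusted p = 5.71e-08), Trim59 (-0.63 ± 0.22), Trim16 (-0.53 ± 0.11) and Trim69 (-0.47 ± 0.14). Trim8, an adaptor of cytokine signalling, had already fallen in P2 (-0.69 ± 0.073, adjusted p = 1.45e-05), and so had Trim16 (-0.49 ± 0.11, adjusted p = 0.00563). The call of Trim59 (adjusted p = 0.0284) ended in 7 alternatives (adjusted p of 0.0534 to 0.0887), among them without fed rat 1, 3 or 4 or P3 rat 1, 3 or 4, and that of Trim69 ended with centred arrays (0.062). None of the other TRIM genes came near the 6.45 of Trim63.

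**Figure D2:**
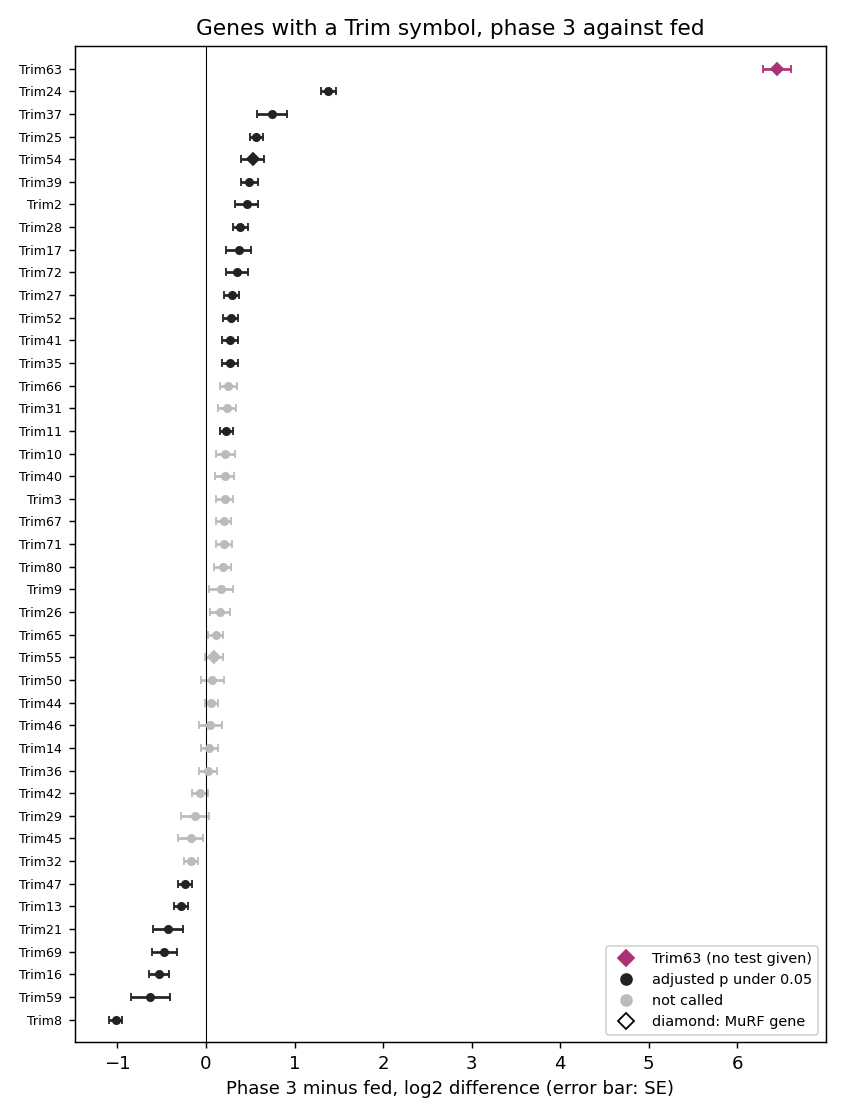
Log2 difference between phase 3 and fed rats, with its SE, for the 43 genes with a Trim symbol, ordered by size. Diamonds are the MuRF genes, black points passed limma's test at an adjusted p under 0.05, and grey points did not. Trim63 lies at 6.45 and the next gene, Trim24, at 1.38.

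The closest relatives of the MuRFs outside the family are the TRIM proteins that also carry a COS box. Of the 6 measured, none was called in any comparison by limma with all 12 arrays. At an unadjusted p under 0.05 there were 0 in P2 against fed, 1 in P3 against fed and 1 in P3 against P2 rats. Over all genes 25.2%, 45.4% and 27.9% were called. All but Mid1 also count among the 40 above. In P3 against fed rats Mid1, a microtubule-bound ligase, differed by -0.25 ± 0.18 (adjusted p = 0.276), Trim9, known from neurons, by 0.17 ± 0.13 (adjusted p = 0.299), Trim67 by 0.20 ± 0.088 (adjusted p = 0.0783) and Trim42 by -0.07 ± 0.09 (adjusted p = 0.571). Trim67 passed with centred arrays (adjusted p = 0.00456) and without fed rat 2 (0.049).

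Among 21 measured regulators that are reported to act on Trim63 in muscle, 11 rose and 1 fell in P3 against fed rats, with a median of 0.20. In P2 against fed rats 4 rose and 0 fell, and with centred arrays 8 rose. Between P3 and P2 rats 6 rose and 1 fell, and with centred arrays 10 and 1. Calls in either direction, 57.1%, 19% and 33.3% of the list, stand beside 45.4%, 25.2% and 27.9% of all genes. Of all genes 21.1%, 9.66% and 12.8% were called higher, and 24.3%, 15.5% and 15.1% lower.

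Of the 3 measured FOXO factors, which transcribe Trim63 once insulin signalling ceases to hold them in the cytosol, Foxo1 and Foxo3 were higher in each phase and Foxo4 was not called. Foxo3 measured 8.53, 8.35, 8.07 and 8.07 in fed rats, 8.77, 8.82, 8.57 and 8.90 in P2 rats and 9.67, 10.02, 9.73 and 10.06 in P3 rats, with no overlap between groups. It rose by 0.51 ± 0.12 in P2 against fed rats (adjusted p = 0.00807), by 1.1 ± 0.12 in P3 against P2 rats (adjusted p = 1.79e-05) and by 1.61 ± 0.12 in P3 against fed rats (adjusted p = 1.3e-07). Foxo1 measured 8.38, 8.30, 8.22 and 8.19 in fed rats, 8.95, 9.05, 8.52 and 8.98 in P2 rats and 9.46, 9.26, 9.28 and 9.40 in P3 rats. It rose by 0.60 ± 0.11 in P2 against fed rats (adjusted p = 0.000929), by 0.47 ± 0.11 in P3 against P2 rats (adjusted p = 0.00435) and by 1.08 ± 0.11 in P3 against fed rats (adjusted p = 1.69e-06). Foxo4, named after its value was seen, differed by 0.40 in P2 against fed rats (adjusted p = 0.0796, and 0.0108 without P2 rat 2), by -0.26 in P3 against P2 rats (adjusted p = 0.251, and 0.0395 without P2 rat 2) and by 0.14 in P3 against fed rats (adjusted p = 0.485). The array reads RNA and not the location or phosphorylation of these proteins.

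Of the regulators linked to glucocorticoids, Klf15 and Tsc22d3 were higher and the receptor gene Nr3c1 was lower in P3 than in fed rats. No wider list of glucocorticoid targets was counted. Klf15, a glucocorticoid-induced factor that acts on Trim63 in muscle, measured 6.41, 5.87, 6.08 and 5.86 in fed rats, 7.19, 7.49, 7.07 and 7.42 in P2 rats and 8.40, 8.68, 8.07 and 8.64 in P3 rats. It rose by 1.24 ± 0.15 in P2 against fed rats (adjusted p = 5.5e-05), by 2.39 ± 0.15 in P3 against fed rats (adjusted p = 2.08e-08) and by 1.16 ± 0.15 in P3 against P2 rats. Nr3c1, the receptor gene, measured 10.55, 10.51, 10.60 and 10.58 in fed rats, 10.65, 10.38, 10.31 and 10.24 in P2 rats and 10.04, 9.87, 9.97 and 10.02 in P3 rats. It fell in P3 against fed rats (-0.58 ± 0.089, adjusted p = 8.51e-05) and in P3 against P2 rats (-0.42 ± 0.089, adjusted p = 0.00269), and in P2 against fed rats it differed by -0.16 (adjusted p = 0.22, and 0.0391 without P2 rat 1). The other regulators with the smallest adjusted p included Rela, a subunit of NF-kappa-B, which rose by 0.61 ± 0.08 in P3 against fed rats (adjusted p = 2.09e-05) and differed by 0.17 in P2 against fed rats (adjusted p = 0.138, and 0.0415 with centred arrays). Tsc22d3, a glucocorticoid-induced leucine zipper gene named here after its value was seen, rose by 1.86 ± 0.27 in P3 against fed rats (adjusted p = 5.59e-05) and differed by 0.66 in P2 against fed rats (adjusted p = 0.0949, and 0.0202 without fed rat 1 and 0.026 without P2 rat 3). Myog, which drives Trim63 in denervated muscle, differed by 0.30 ± 0.20 (adjusted p = 0.23) at a level of 4.82 to 5.96 over all rats.

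**Figure D3:**
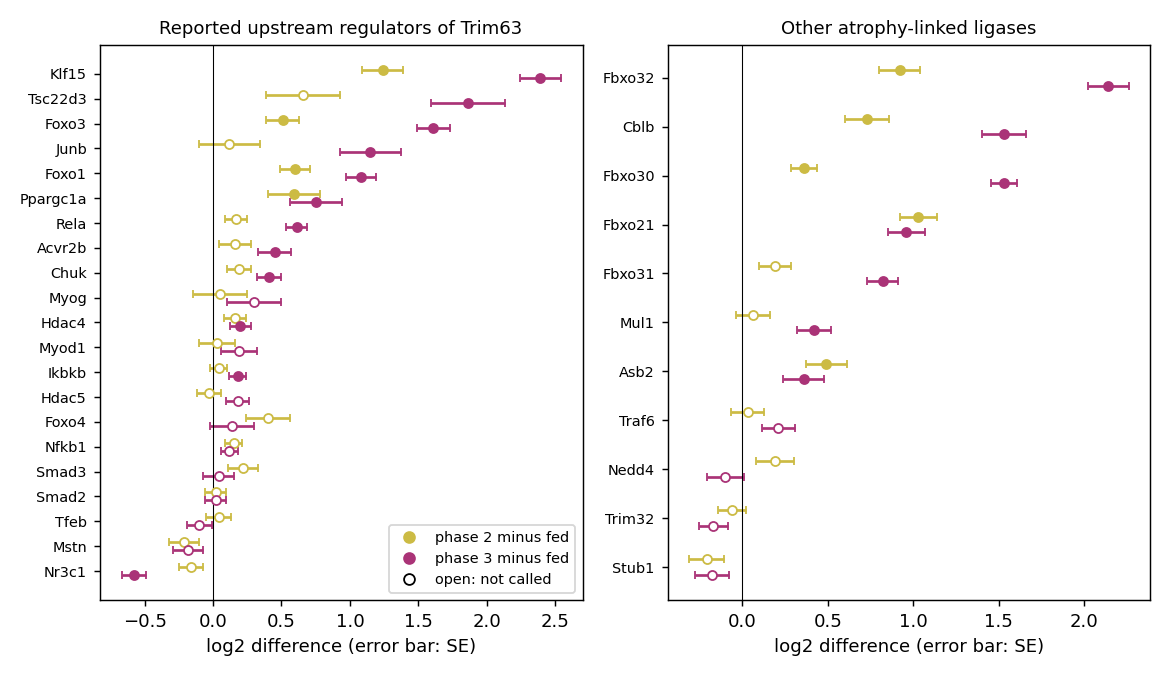
Log2 differences from fed rats in phase 2 (yellow) and phase 3 (purple), with SE, for 21 reported upstream regulators of Trim63 (left) and 11 other ubiquitin ligases linked to muscle atrophy (right). Filled points passed limma's test at an adjusted p under 0.05. Klf15 at 2.39 and Fbxo32 at 2.14 lead their panels in phase 3, and Nr3c1 is lowest on the left at -0.58.

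Several other ubiquitin ligases linked to muscle wasting were higher too, at a smaller scale than Trim63. Of 11 measured, 7 rose and 0 fell in P3 against fed rats (median 0.42), 5 rose and 0 fell in P2 against fed rats (0.19), and 5 rose and 0 fell in P3 against P2 rats (0.19). These are 63.6%, 45.5% and 45.5% of the list beside 45.4%, 25.2% and 27.9% of all genes called. Nedd4, Stub1, Trim32 and Traf6 were not called in any of the comparisons. Fbxo32 (atrogin-1), the F-box ligase that usually accompanies MuRF1 in muscle, measured 7.5, 7.67, 7.55 and 7.51 in fed rats, 8.68, 8.21, 8.72 and 8.28 in P2 rats and 9.71, 9.74, 9.48 and 9.84 in P3 rats. It rose by 0.92 ± 0.12 in P2 against fed rats (adjusted p = 8.5e-05), by 2.14 ± 0.12 in P3 against fed rats (4.4-fold, adjusted p = 6.79e-09) and by 1.22 ± 0.12 in P3 against P2 rats. Fbxo30 (MUSA1), another F-box ligase of atrophy, rose by 1.53 ± 0.077, Cblb, which marks insulin receptor substrate 1, by 1.53 ± 0.13, and Fbxo31 by 0.82 ± 0.092, all in P3 against fed rats. In P2 against fed rats Fbxo30 rose by 0.36 ± 0.077 and Cblb by 0.73 ± 0.13, and Fbxo31 differed by 0.19 (adjusted p = 0.152, and 0.0415 with centred arrays).

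The enzymes that hand ubiquitin to such ligases did not move as 1 group. Of 25 ubiquitin-conjugating enzymes 4 rose and 7 fell in P3 against fed rats (44.0% of the list beside 45.4% of all genes, median -0.02). With centred arrays, which add 0.16 to every P3 against fed difference, 9 were higher and 6 lower (median 0.13). Over all genes 69.6% of the calls were then higher, against 46.5% without centring. In P2 1 rose and 8 fell against fed rats (36.0% beside 25.2%, median -0.12). In P3 against P2 rats 7 rose and 3 fell (40% beside 27.9%, median 0.15), and 12 and 2 with centred arrays. Ube2g2, an enzyme of endoplasmic reticulum protein degradation, measured 8.49 to 8.83 in fed, 8.56 to 8.86 in P2 and 10.01 to 10.52 in P3 rats. It rose by 1.60 ± 0.11 in P3 against fed rats (adjusted p = 5.88e-08), and in P2 against fed rats it differed by 0.12 (adjusted p = 0.504). Ube2b, whose protein in muscle works with the N-end rule ligases, rose by 0.48 ± 0.093 in P2 and by 1.02 ± 0.093 in P3 against fed rats. Ube2e2 fell in P2 (-0.84 ± 0.10) and further in P3 (-1.71 ± 0.10), both against fed rats, and so did Ube2l3, a partner of many RING and HECT ligases (-0.40 ± 0.066 and -0.71 ± 0.066). Of the 2 measured genes of ubiquitin-activating enzymes, Uba1 fell in P2 (-0.32 ± 0.077, adjusted p = 0.00664) and in P3 (-0.34 ± 0.077, adjusted p = 0.00239) against fed rats, and Uba6 differed by -0.24 ± 0.10 (adjusted p = 0.0631, and 0.0269 to 0.0484 in 3 alternatives, among them without P2 rat 4 or P3 rat 4).

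Of 25 measured partners and substrates that are reported for MuRF proteins, most of them muscle proteins, 6 rose and 3 fell in P3 against fed rats (36.0% beside 45.4% of all genes, median 0.14). With centred arrays, which add 0.16 to every such difference, 16 rose and 3 fell (median 0.29). In P2 against fed rats 3 rose and 2 fell (20% beside 25.2%, and 7 and 2 with centred arrays), and in P3 against P2 rats 4 rose and 4 fell (32% beside 27.9%). The pair of autophagy receptors reported in a complex with MuRF2 in muscle rose in P3. Nbr1 measured 10.14 to 10.37 in fed, 10.59 to 10.85 in P2 and 11.11 to 11.25 in P3 rats, a rise of 0.49 ± 0.081 in P2 and of 0.94 ± 0.081 in P3 against fed rats (adjusted p = 0.000514 and 3.87e-07). Sqstm1 (p62) rose by 0.94 ± 0.099 in P3 (adjusted p = 2.76e-06), while in P2 against fed rats it differed by 0.22 (adjusted p = 0.122, and 0.0392 with centred arrays). Mybpc1, a slow-muscle myosin-binding protein, fell against fed rats in P2 (-1.1 ± 0.15) and in P3 (-1.74 ± 0.15, adjusted p = 4.83e-07). Myl1, a myosin light chain, did so too, by -0.71 ± 0.11 in P2 and by -1.19 ± 0.11 in P3 (adjusted p = 6.14e-07). Ttn, which encodes titin, differed by 0.17 ± 0.096 (adjusted p = 0.174, and 0.0176 with centred arrays) at 4.06 to 4.60 over all rats.

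Since the MuRFs are muscle genes, the markers of striated muscle were read beside Trim63. Of 26 skeletal muscle markers 0 were called higher and 4 lower in P3 against fed rats by limma (15.4% beside 45.4% of all genes; 3 and 4 at an unadjusted p under 0.05), and 0 higher and 2 lower in P2 against fed rats (7.69% beside 25.2%; 1 and 2 unadjusted). Several of them also stand in the list of partners. In P3 against P2 rats 1 was higher and 4 were lower (19.2% beside 27.9% of all genes). With centred arrays, which add 0.16 to every such difference, 12 were higher and 4 lower in P3 against fed rats. The median was then 0.25, against 0.10 without centring. The mean over the list lay at 5.23 to 5.31 in fed, 5.16 to 5.27 in P2 and 5.07 to 5.40 in P3 rats. Of its members 6 in P3 and 11 in fed rats lay above the 95th percentile of the olfactory receptor genes. That percentile was itself 5.76 in P3 and 5.32 in fed rats, so the counts rest on different cuts. Acta1, the skeletal actin gene, measured 7.15, 7.09, 7.11 and 7.06 in P3 rats against 6.89, 7.07, 6.93 and 7.14 in fed rats, a difference of 0.09 ± 0.14 (adjusted p = 0.617). Ckm, the muscle creatine kinase gene, differed by 0.10 ± 0.094 (adjusted p = 0.417, and 0.0438 with centred arrays). Tnnt3, a fast troponin gene and the brightest marker, fell in P3 against fed rats (-1.39 ± 0.13, adjusted p = 6.91e-07).

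Of 11 cardiac muscle markers 2 were called higher in P3 against fed rats (18.2% beside 45.4% of all genes). There were 6 with centred arrays, 0 without P3 rats 2 and 3 and 0 without the dimmest 40% of genes. The brightest, Actc1, Tnnt2 and Myl7, differed by 0.17, 0.18 and 0.26 (adjusted p = 0.317, 0.135 and 0.122, of which Tnnt2 and Myl7 passed with centred arrays). In P2 against fed rats 1 was called higher (9.09% beside 25.2% of all genes), a call that ended in 9 alternatives. Most smooth muscle markers were higher in both phases than in fed rats. All 10 rose in P2 against fed rats (beside 25.2% of all genes called, median 1.06) and 9 in P3 against fed rats (90% beside 45.4%, median 1.07). In P3 against P2 rats 1 of 10 rose (10% beside 27.9%, median -0.09). Myh11, the smooth muscle myosin, measured 9.50 to 10.26 in fed, 11.19 to 11.86 in P2 and 11.37 to 12.13 in P3 rats, and rose by 1.71 ± 0.19 in P2 and 1.93 ± 0.19 in P3 against fed rats. Tagln rose by 1.25 ± 0.20 and 1.03 ± 0.20, and Acta2 by 0.63 ± 0.13 in P2. In bulk tissue more cells of a type and more RNA per cell cannot be told apart, and the part of smooth muscle cells in the Trim63 difference was not tested.

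**Figure D4:**
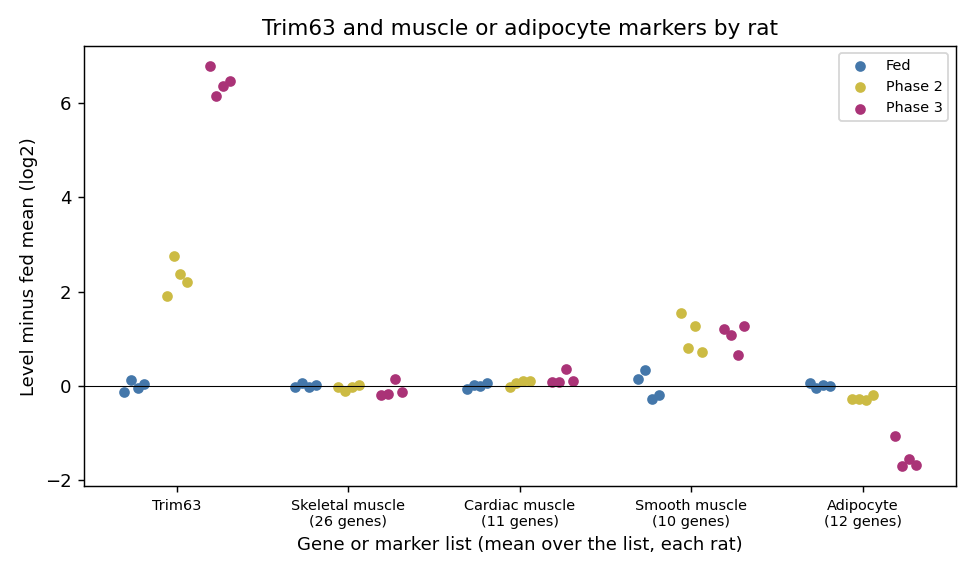
Level in each rat minus the fed mean, on the log2 scale, for Trim63 and for the mean over each marker list (26 skeletal muscle, 11 cardiac muscle, 10 smooth muscle and 12 adipocyte genes) in fed (blue), phase 2 (yellow) and phase 3 (purple) rats. Trim63 is on average 2.31 above fed rats in phase 2 and 6.45 in phase 3, the smooth muscle list is higher in both phases than in fed rats, and the adipocyte list is lowest in phase 3.

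The tissue carried most of its adipocyte markers in every group. All 12 in fed and P2 rats and 11 of 12 in P3 rats lay above the 95th percentile of the olfactory receptor genes. The list mean was 11.78 to 11.89 in fed, 11.52 to 11.64 in P2 and 10.12 to 10.75 in P3 rats. In P3 against fed rats 11 of 12 fell and 1 rose, in the same rats in which Trim63 was highest (median -1.33, all 12 called beside 45.4% of all genes). In P2 against fed rats 2 rose and 1 fell (25% beside 25.2%). Against P2 rats 11 fell in P3 rats (91.7% beside 27.9%). Lep, the leptin gene, which like the next 4 was named after its value was seen, fell furthest and was the member within the olfactory receptor range in P3. It measured 11.07 to 11.48 in fed, 6.39 to 8.16 in P2 and 4.28 to 5.33 in P3 rats, a difference of -4.12 ± 0.31 in P2 and -6.40 ± 0.31 in P3 against fed rats. The hormone gene Retn fell in P3 against fed rats (-2.22 ± 0.26), as did the lipid droplet genes Plin1 (-1.65 ± 0.31) and Cidec (-1.63 ± 0.15) and the adiponectin gene Adipoq (-1.52 ± 0.17). Fabp4, the fatty acid binding protein of fat cells, measured 12.52 to 12.97 in P3 rats against 13.03 to 13.16 in fed rats and fell (-0.38 ± 0.092, adjusted p = 0.00365, and 0.055 with centred arrays). Cd36, the fatty acid transporter, rose by 0.43 ± 0.078 in P2 and by 0.31 ± 0.078 in P3 against fed rats (adjusted p = 0.00103 and 0.00445). Lpl, the lipoprotein lipase, was at -0.22 ± 0.078 (adjusted p = 0.0352), a call that ended in 11 alternatives (adjusted p up to 0.506), among them without any 1 of the fed rats or without P3 rat 2, 3 or 4. Of 14 markers of immune, endothelial, fibroblast, mesothelial, liver and epididymal cells 3 rose and 7 fell in P3 against fed rats, 2 rose and 1 fell in P2 against fed rats, and 2 rose and 6 fell in P3 against P2 rats. These are 71.4%, 21.4% and 57.1% of the list beside 45.4%, 25.2% and 27.9% of all genes called. By the mean over the 12 arrays the brightest were Dpt, a fibroblast gene (11.68 in P3 and 12.76 in fed rats), Pecam1, an endothelial gene (11.32 and 10.24), and Csf1r, a macrophage gene (10.28 and 10.54). Other markers of the same cell types, named after their values were seen, differed from these. In P3 against fed rats the endothelial Cdh5 was at 0.10 (adjusted p = 0.439). The macrophage gene Cd68 was at 0.86 (adjusted p = 0.00138) and Adgre1 at -1.07 (adjusted p = 4.05e-05).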

How the data were processed

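RNA from the fat pad of each rat was labelled and hybridised to 1 Affymetrix Rat Gene 1.0 ST array. The deposited log2 values, 1 per probe set, came from RMA run by the authors, which corrects background, quantile-normalises and summarises probes; GCOS and Affymetrix Expression Console 1.1 are also named, per the submitters' processing notes. RMA settings are not given in the sources used here. No detection calls or scan batches were used. The number of arrays limits the precision.

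Of 29215 probe sets 15310 had 1 gene in the platform annotation, 323 several and 13582 none. For 527 genes with more than 1 probe set the brightest by mean was kept, leaving 14506 genes, of which 14481 matched RefSeq (GRCr8) by Entrez number. One model with a mean per group was fitted to all 12 arrays with limma 3.58.1 in R 4.3.3. Benjamini-Hochberg adjustment ran over the whole table, and the word called refers to an adjusted p under 0.05. Differences are log2 with the model's SE. The fit was tested on simulated data. P-values set each difference of group means against the spread between rats of the same group, which limma moderates over all genes.

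Members and lists (7 of them functional or by symbol, 5 of markers) were chosen with earlier results of these data known. Named genes were the members, the 10 genes most like Trim63 and 5 each most like Trim54 and Trim55, up to 4 genes per list with the smallest adjusted p, the 4 largest rises and falls among Trim symbols, the 3 brightest markers per list, a few fixed genes (Fbxo32, Foxo1, Foxo3, Nr3c1, Klf15, Myog, Ttn, Nbr1, Sqstm1, Ckm, Acta1), and neighbours by position. Tsc22d3, Foxo4, Lep, Retn, Plin1, Cidec, Adipoq, Cdh5, Cd68, Adgre1, Alb, Ttr and the 4 ligases not called were added after their values were seen. The alternatives were other normalisations, centred arrays, a filter on dim genes, the mean of probe sets, all probe sets, another variance prior, fits of 2 groups, a replicate block and leaving out arrays. Tables and plots were made in Python 3.11.15 (pandas 2.3.3, matplotlib 3.10.9).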

Additional observations from a re-analysis of the deposited data

Results flagged for a closer look

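In groups of 4 rats, 1 rat was flagged as apart from the other 3 in 13 of 264 gene and group sets. Chance alone gives about 1 in 20. The flag means that the gap to the next rat made up most of the group's range, which could itself be small. None of the sets belonged to Trim63, Trim54 or Trim55. P3 rat 3 was lowest for Mid1, at 6.40 with the others at 7.10 to 7.25, and highest for Ttn (4.60) and for Slc30a2 (6.14). Among P2 rats, rat 1 was lowest for Ube2b (9.76), rat 2 was highest for Olr876 (4.63) and rat 4 was highest for Ucn (5.33). Among fed rats, rat 1 was highest for Trim37 (7.27) and lowest for Trim42 (4.39), rat 2 was lowest for Dpt (12.72), rat 3 was highest for Dnajc5b (4.18) and lowest for Ttn (4.06), and rat 4 was lowest for Trim24 (6.82) and Plin1 (11.64).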

How the results depend on the processing

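Trim63 kept its direction in all 22 alternatives, between 2.15 and 2.44 in P2 against fed rats, 6.33 and 6.64 in P3 against fed rats and 4.01 and 4.33 in P3 against P2 rats. Trim54 stayed called in P3 against fed rats in all 21 alternatives that tested it (0.44 to 0.68, adjusted p of 0.000163 to 0.015). It and Trim55 were among the dimmest 40% of genes and have no value without these. In P3 against P2 rats Trim54 passed with centred arrays (0.44, adjusted p = 0.021), cyclic loess (0.32, 0.0415), quantile normalisation (0.36, 0.0321) and without P3 rats 2 and 3, an alternative chosen after seeing the data (0.43, 0.016), and over single left-out rats it ran between 0.28 and 0.48 (adjusted p up to 0.157). Trim55 changed sign near 0: in P2 against fed rats with quantile normalisation (-0.00073) and between -0.03 and 0.07 over single left-out rats (-0.005 without fed rat 4, -0.0037 without P2 rat 3), and without P3 rats 2 and 3 in P3 against fed (-0.07) and P3 against P2 rats (-0.08).

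Over all genes 6589 were called in P3 against fed rats and 10322 when all probe sets were tested. With centred arrays the share of calls that were higher was 53% (38.4% without centring) in P2 against fed, 69.6% (46.5%) in P3 against fed and 64.9% (45.8%) in P3 against P2 rats. Of 104 other named differences 80 kept call and direction in every alternative run. Uncalled ones changed sign for Trim42 (0.09) and Pdik1l (0.08) with centring, Ucn (-0.01) and Crh (-0.04) with cyclic loess, Crh with quantile normalisation (-0.04), and Ucn (-0.08) and Dnajc5g (-0.06) without P3 rats 2 and 3. List counts that moved over 1.5 times and are not given above were, in total calls, partners without dim genes in P2 against fed (3 against 5) and P3 against P2 (5 against 8), skeletal markers without dim genes (1, 2 and 2 against 2, 4 and 5), cardiac markers in P3 against fed (1 with either normalisation or without fed rat 1, against 2) and P3 against P2 (1 without P3 rat 1 and 2 with centring, against 0), COS box genes with centring (1 against 0 in P3 against fed and P3 against P2), and adipocyte and other cell markers in P2 against fed with 2 groups fitted (5 each against 3). The causes were not tested.

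Rats share replicate numbers across groups. The deviations of same-numbered rats from their group means had correlations of -0.155 to 0.188 (4 of 12 over 0.1). Those of rats with different numbers had correlations of -0.253 to 0.276 (8 of 36 over 0.1). With the number as a replicate block 3539, 6526 and 3995 genes were called against 3649, 6589 and 4046, Trim54 was at 0.53 (adjusted p = 0.00601) in P3 against fed rats, and of the named differences only Lpl lost its call (0.0512) and only Foxo4 in P2 against fed rats gained one (0.0296).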
